A study of Mus musculus with 3 samples.

Results

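The bright probe sets without a gene symbol are 2785 of the 65956 probe sets of a mouse transcriptome array, and 8.39% of the 33206 probe sets that the platform annotation used here does not name. A probe set is the group of probes that the array summarises into 1 value for a transcript or transcript fragment. The members were chosen by a mean of log2(intensity + 1) of at least 9 over the 3 arrays, which is 511 intensity units. Their brightness is therefore a description and not a result. All probe set IDs had the form used for transcripts, so 0 control probe sets had to be left out.

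The arrays measured RNA of primary neurons of the dorsal root ganglion, which holds the cell bodies of the sensory neurons of the body. The mice were male, of the ICR strain and 8 to 10 weeks old. All cultures were kept for 72 hours in DMEM with the B27 supplement. The control culture received nothing more, the SEMA3E culture received recombinant SEMA3E at 1 µg/ml, and the blocked culture received the same SEMA3E together with a SEMA3E-blocking IgG at 1 µg/ml. SEMA3E (semaphorin 3E) is a secreted guidance protein, and the study asked which transcripts of sensory neurons it alters. The labels give no number of animals and do not say whether animals were pooled. Each medium has 1 array and there are no replicates, so no difference given here has a test or an error, and every difference compares 2 arrays and not 2 conditions.

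Arrays of this kind carry probes for many transcripts that have no gene name, among them fragments of noncoding RNA, unspliced or extended ends of known genes, pseudogenes and copies of repeated sequence. Repeated sequence matters for such probes because RNA from one copy can bind probes designed for another. Mouse chromosomes have their centromere close to one end, flanked by long arrays of satellite repeats, and the mitochondrial genome carries small tRNA genes between its ribosomal and protein-coding genes. A symbol absent from the annotation used here does not mean that the probe set reads no gene. The files pair the members with no sequence and no coordinates.

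The arrays had closely similar medians over all probe sets, from 44.5 to 44.97 units, and members supplied 38.3% of the summed intensity in control medium, 38.3% with SEMA3E and 39.6% with SEMA3E and IgG. The 8 pan-neuronal markers listed, such as Tubb3 and Nefl, all lay above the background level of 5.49 on the log2 scale, which is the 95th percentile of 490 vomeronasal genes. Most measured markers of other cells lay above that level as well. They were 3 of 3 markers of satellite glia, 3 of 3 of Schwann cells and 4 of 4 of fibroblasts. Of macrophage markers 3 of 4 did so, and of endothelial markers 3 of 3. The endothelial markers lay close to that level, with means from 6.06 to 6.50. The summed level of the pan-neuronal markers ranged from 411990 to 420142 units across the arrays and that of the macrophage markers from 3594 to 3847 units. In RNA of mixed cells a change in the share of a cell type and a change in RNA per cell cannot be told apart.

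The members spread over the whole range above the threshold. Their median was 11.21 on the log2 scale, with quartiles at 9.79 and 13.41 and a highest value of 18.74. The 6183 equally bright probe sets with 1 symbol had a median of 10.74. Of the members 846 lay between 9 and 10, 941 between 10 and 12, 393 between 12 and 14, 371 between 14 and 16, and 234 at 16 or more.

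The brightest members lay close to the top of the scale, which ended at 496402 units on every array. Probes bind unequally, so brightness does not rank probe sets by the amount of RNA. TC0200002613 on chromosome 2, next to the predicted gene Gm14261, had 442139 units in control medium, 432197 with SEMA3E and 442139 with SEMA3E and IgG (probe set IDs are given without their shared ending, .mm.1). TC0800002549, next to Elmod2, had 422210, 421704 and 430338 units on the same arrays, and TC1300000962, next to Gm8399, had 426342, 411767 and 426342 units. The SEMA3E array was the lowest of the arrays in each of the 3, by at most 0.05 on the log2 scale against control.

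The other members of the 12 brightest had means between 18.45 and 18.59. They were TC0200000731, TC1100001295, TC1800000952, TC1500000918, TC0100002078, TC1100000801, TC0300001048, TC0700003630 and TC1700001553. TC1800000952 read 391741 units and TC1100000801 read 367909 units on every array. The largest difference among the 12 was 0.15, between SEMA3E with IgG (402576 units) and SEMA3E alone (363614 units) in TC0100002078. Several lay beside dim genes: the neighbours Vmn1r-ps149 and Vmn1r-ps150 of TC1700001553, both vomeronasal receptor pseudogenes, had means of 4.48 and 3.69, below the background level.

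At the threshold the choice turned on small differences in level. The members just above it were TC0Y00000007 (mean 9.004, with 563, 494 and 483 units), TC1000002832 (513 units on every array) and TC1300002582 (513 units on every array). Just below it lay TC0700003607, TC0900001189 and TC0600001225, each with an identical value of 511 units on every array, from 510.58 to 510.62.

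The chromosome of each probe set was read from its ID, because the annotation gave no positions. In a check on probe sets with 1 symbol, the chromosome in the ID equalled that of RefSeq (GRCm38.p6) for 29191 of 29289, or 99.7%. The numbers in the IDs followed RefSeq's gene order for 28900 of 29143 neighbouring pairs, or 99.2%, first along one strand and then along the other. Numbering was therefore used to say which probe sets lie next to each other.

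Members came from every chromosome, with 2744 (98.5%) on the numbered and sex chromosomes. The 19 autosomes held between 75 members (chromosome 19) and 223 members (chromosome 2). The share of unnamed probe sets that were bright lay between 6.88% on chromosome 14 and 9.44% on chromosome 4, with a median of 8.48%. The share was 11.4% on chromosome X (157 members) and 4% on chromosome Y (12 members). The mitochondrial chromosome stood far above the others, with 14 members of 19 unnamed probe sets (73.7%), and scaffolds not placed on a chromosome held 25 members of 101 (24.8%).

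**Figure D1:**
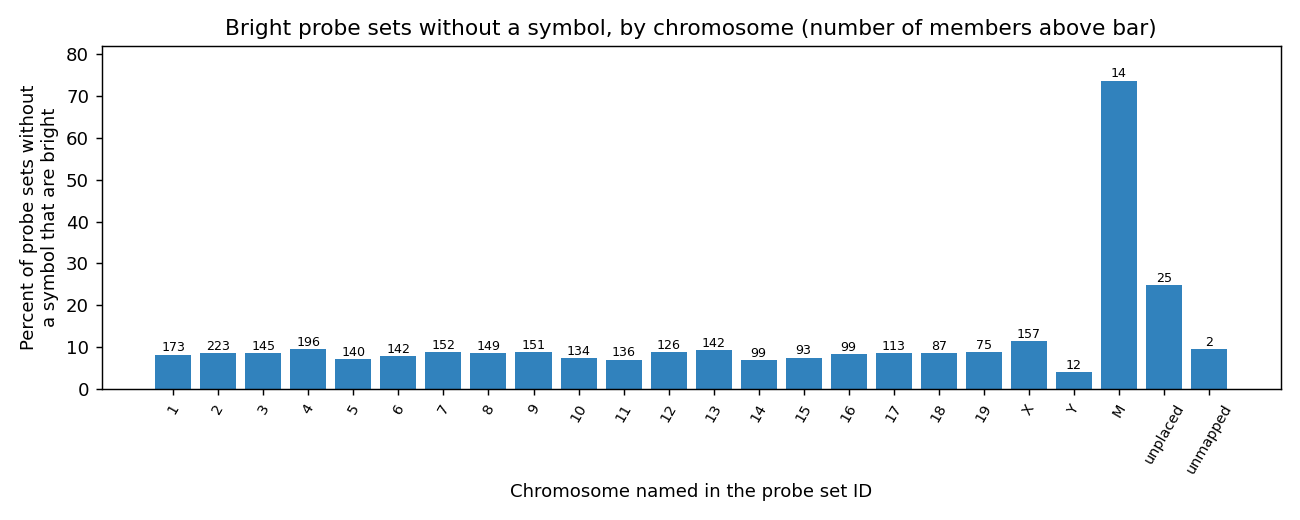
Share of unnamed probe sets that are bright, in percent, for each chromosome named in the probe set ID; the number above each bar is the count of members. The autosomes lie between 6.88% and 9.44%, chromosome X at 11.4%, chromosome Y at 4%, unplaced scaffolds at 24.8% and the mitochondrial chromosome at 73.7%.

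Members lay next to each other more often than dim unnamed probe sets lay next to a member. Of 2758 members with a neighbour in the numbering, 593 (21.5%) had another member beside them, against 7.83% of the 30326 unnamed probe sets below the threshold. A probe set with a symbol stood beside 64.7% of members and 64.4% of the dim ones. A bright probe set with a symbol stood beside 23.5% and 18.3%. Neighbouring probe sets can be fragments of one transcript, so they are not independent of each other, and these shares were not tested.

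Ties between arrays were frequent. All 3 arrays held the identical value in 1007 members (36.2%), a pair of arrays did in 815 (29.3%), and all 3 differed in 963 (34.6%). Among the bright probe sets with 1 symbol the shares were 60.6%, 24.9% and 14.5%. An identical value does not show equal RNA, since the summary of probes into a single value can hide small differences.

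Members had fewer ties than named probe sets at every level of brightness. Between 9 and 10 on the log2 scale, 45.6% of members and 72.9% of bright probe sets with 1 symbol were identical on all arrays. Between 12 and 14 the shares were 25.7% and 50.1%. Between 14 and 16, where members had the lowest share, they were 17.3% and 39.8%, and at 16 or more 23.5% and 39.6%. The difference in ties was thus not confined to a single band of brightness.

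**Figure D2:**
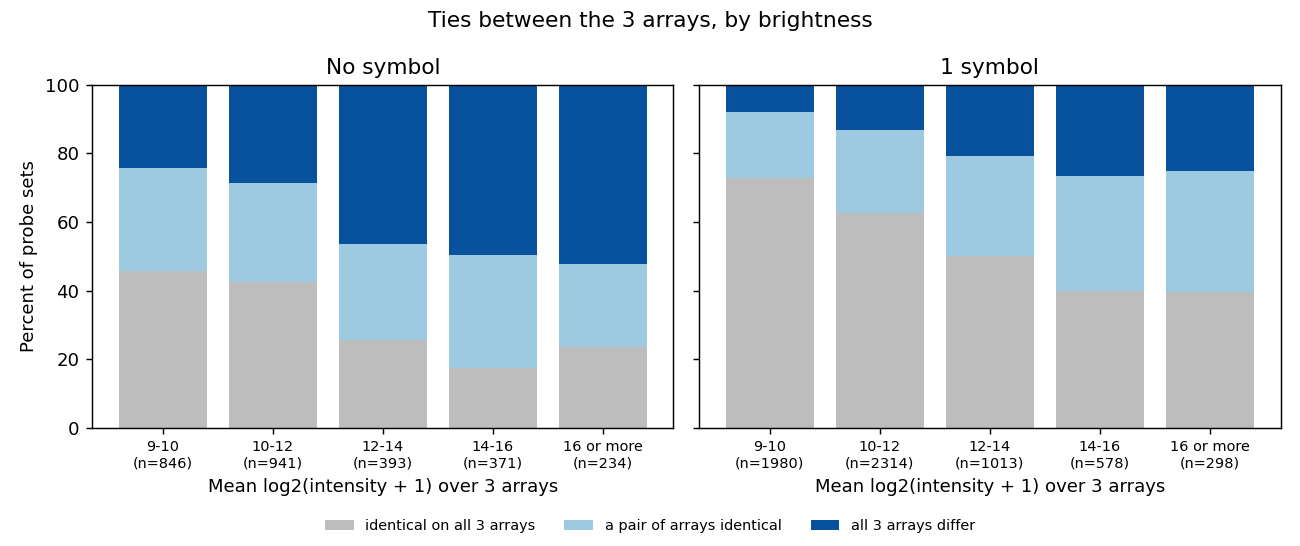
Percent of probe sets whose 3 array values are all identical, identical on a pair of arrays or all different, by mean log2(intensity + 1), for members (left) and for probe sets with 1 symbol (right). In members the share identical on all arrays is 45.6% between 9 and 10, lowest at 17.3% between 14 and 16, and 23.5% at 16 or more; in named probe sets it is 72.9%, 39.8% and 39.6%.

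Many members also shared their values with each other. There were 64 groups of members with the same value on each of the 3 arrays, holding 417 members (14.97%), and 50 of these groups spanned more than 1 chromosome. The members held 2432 distinct sets of values. These groups were formed after the data were seen.

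The largest shared group was 63 members at 3326 units on every array, spread over 17 chromosomes. A group of 35 members on 17 chromosomes read 3406 units, and one of 30 members on 14 chromosomes read 2906 units. A much brighter group of 27 members on 12 chromosomes, which includes TC0100000722, read 155533 units. A group of 18 members on 9 chromosomes, led by TC0100001325, differed between all arrays, with 48613 units in control medium, 54614 with SEMA3E and 60209.8 with SEMA3E and IgG. The last of these was highest with IgG, by 0.31 on the log2 scale over control. The 11 groups of at least 10 members held 264 members, and none of them shared its values with a probe set that has a symbol.

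In total 489 members (17.6%) shared all their values with at least 1 other probe set, against 17.1% of the bright probe sets with 1 symbol. Where all arrays differed, a shared value was found for 109 of 963 members (11.3%) and 8.34% of the named ones. Where a pair of arrays was identical, the shares were 12.3% and 1.82%. Of the members 84 shared their values with a probe set that has a symbol, and 80 of these were identical on all arrays. Among the 84, 34 shared them with 2 or more distinct symbols. TC0200000783 read 539 units on every array, as did 9 symbols, among them the protein-coding genes Cks2, Scn10a and Terf2. What the shared values come from was not tested, since values of single probes were not used here.

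The 4 that shared values differing between arrays with named genes had small nuclear RNA genes or pseudogenes as partners. TC1200000429 read 1417, 1376 and 1622 units in control medium, with SEMA3E and with SEMA3E and IgG, the same values as 48 predicted small nuclear RNA genes such as Gm23512. TC0900002769 read 771, 689.5 and 866 units, the same as 4 such genes, among them Gm24389. In both the array with IgG was highest and the SEMA3E array lowest. Small nuclear RNAs take part in splicing, and their genes have many near-identical copies in the mouse genome. TC0900001926, with 126165 units in control medium and 127354 on the other arrays, matched the pseudogene Gm3699. TC1900001491, which read 259222 units with SEMA3E and IgG and 265332 on the other arrays, matched the transcribed pseudogene Gm13363.

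The differences between media were small for most members. The median difference was 0 in all 3 comparisons, for members, for the bright probe sets with 1 symbol and for all probe sets alike. The comparisons share arrays, so their values are given side by side and are not independent.

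For SEMA3E against control medium, 713 members were higher, 784 lower and 1288 identical, over a range from −0.80 to 3.16 on the log2 scale. Of all probe sets 12.2% were higher and 8.95% lower, and of the bright probe sets with 1 symbol 5.39% and 23.1%. At least 1.5-fold apart were 31 members (1.11%), 26 higher and 5 lower with SEMA3E, where 0.324% of all probe sets (0.183% higher, 0.141% lower) and 0.129% of the bright probe sets with 1 symbol passed. Of the 31 members 5 lay below 511 units on at least 1 array, and passed the threshold only through the other arrays. A 2-fold difference was reached by 7 members, all higher with SEMA3E, and by 0.0622% of all probe sets. Those 7 hold 5 distinct sets of values, and 4 of them lay below 511 units in control medium, so that they became members only through the arrays where they were high; their count and direction support nothing. Without the 12 members at the start of chromosome 9 and beside Tnc, described next, the count at 1.5-fold was 20, with 15 higher and 5 lower.

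For SEMA3E with IgG against SEMA3E alone, 1037 members were higher, 560 lower and 1188 identical, from −1.56 to 0.97. Of all probe sets 9.68% were higher and 12.8% lower, and of the bright probe sets with 1 symbol 18.2% and 15%. At 1.5-fold were 42 members (1.51%), 22 higher and 20 lower with IgG, against 0.277% of all probe sets (0.143% higher, 0.135% lower) and 0.129% of the named bright ones. Of the 42 members 8 lay below 511 units on at least 1 array. A 2-fold difference was reached by 11, all lower with IgG, and by 0.0606% of all probe sets. Those 11 hold 5 distinct sets of values, and 7 of them lay below 511 units on at least 1 array. Such members passed the threshold only through the arrays where they were high, so the count and direction of the 11 support nothing. With shared values counted once, 36 members were 1.5-fold apart, 22 higher and 14 lower, and at a threshold of 9.5 there were 35, 22 higher and 13 lower.

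For SEMA3E with IgG against control, 1033 were higher, 392 lower and 1360 identical, from −1.03 to 1.60. Of all probe sets 10.3% were higher and 9.29% lower. The bright probe sets with 1 symbol leaned the other way from the members, with 11.4% higher and 20.2% lower. At 1.5-fold were 37 members (1.33%), 33 higher and 4 lower, against 0.271% of all probe sets (0.146% higher, 0.126% lower) and 0.323% of the named bright ones. A 2-fold difference was reached by 15, 14 of them higher, and by 0.0667% of all probe sets. Of the 37 members 7, and of the 15 members 3, lay below 511 units on at least 1 array. Those members passed the threshold only through the arrays where they were high. The 14 also include all 8 members of a run at the start of chromosome 9, so their count and direction support nothing. Without the same 12 members, 25 were 1.5-fold apart, 21 higher and 4 lower. In all 71 members (2.55%), holding 61 distinct sets of values, were at least 1.5-fold apart in at least 1 comparison. Among all probe sets without a symbol, members included, the shares at 1.5-fold were 0.527%, 0.446% and 0.407% in the 3 comparisons. These also lay above the shares of all probe sets.

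The direction of small differences varied with brightness. Among members at 16 or more, 10.7% were higher and 54.7% lower with SEMA3E than in control medium, and 64.1% were higher and 8.55% lower with IgG than with SEMA3E alone. Equally bright probe sets with 1 symbol leaned the same way. In the first comparison 5.37% of them were higher and 37.2% lower, and in the second 39.3% higher and 15.4% lower. Dimmer members differed from named probe sets in the first comparison. Between 9 and 10, 24.6% of members were higher and 19.5% lower, against 3.79% and 15.9% of those with 1 symbol. Between 12 and 14, the shares were 34.1% and 28.8% of members, against 8.19% and 28.2%. In the members at 16 or more 56.0% were higher and 11.1% lower with SEMA3E and IgG than in control medium. Between 9 and 10, 29.0% of members were higher and 14.4% lower with SEMA3E and IgG than in control medium. Of the bright probe sets with 1 symbol, 26.8% were higher and 21.8% lower at 16 or more. Between 9 and 10, 7.47% of them were higher and 13.5% lower. The split of all differing members between SEMA3E and control turned with the scaling of the arrays: 47.6% were higher in the deposited values and 51.1% after quantile normalization.

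**Figure D3:**
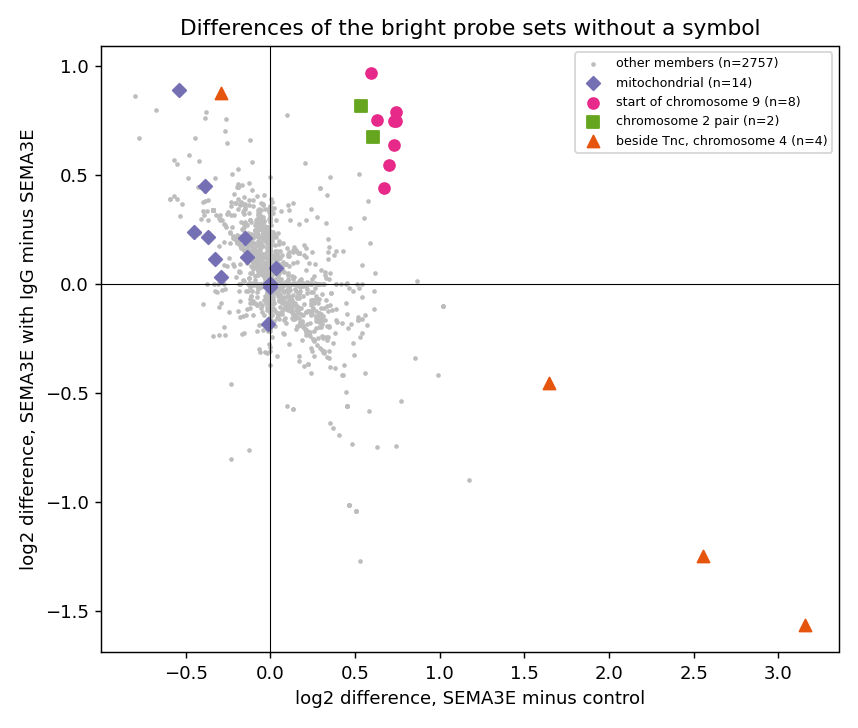
Log2 difference of SEMA3E with IgG minus SEMA3E (vertical) against SEMA3E minus control (horizontal) for the 2785 members, 1 point each; the SEMA3E array enters both axes, so a downward slope is partly built in. The 8 members at the start of chromosome 9 and the chromosome 2 pair lie above 0 on both axes, and 3 of the 4 members beside Tnc lie far to the right, at 1.65 to 3.16.

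The first 8 probe sets in the numbering of chromosome 9, TC0900000001 to TC0900000008, formed the longest unbroken run of members (runs of at least 4 were sought after the data were seen). TC0900000003, the brightest, had 97047 units in control medium, 154369 with SEMA3E and 209711 with SEMA3E and IgG. TC0900000001 had 44595, 72545 and 106052 units. TC0900000008, the furthest apart, had 6069, 9170.2 and 17906 units, which is 2.95-fold between SEMA3E with IgG and control. In these and in the other 5 the order was the same: control lowest, SEMA3E between, SEMA3E with IgG highest.

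The other 5 members of the chromosome 9 run kept to a narrow range of differences. TC0900000002 had 5851, 9788 and 16419 units, and TC0900000006 had 7166, 11988 and 20733 units. TC0900000004 had 13937, 21549 and 36265 units, TC0900000005 had 11899, 19739.9 and 33185 units, and TC0900000007 had 13490.4, 22359 and 34810.4 units. Over all 8, SEMA3E minus control lay between 0.60 and 0.74, SEMA3E with IgG minus SEMA3E between 0.44 and 0.97, and SEMA3E with IgG minus control between 1.11 and 1.56. Neighbouring probe sets may read the same RNA, so the 8 are not 8 separate observations.

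Between the run and the first named gene the step from SEMA3E to SEMA3E with IgG was at most 0.02. TC0900000009, the next probe set, was dim, with 64.6, 105.9 and 107.3 units, in the same order as the run. Its difference of 0.70 between SEMA3E and control lay within the range of the run. TC0900000012 read 3406 units on every array, as part of the shared group of 35 given above. Alkbh8, a tRNA-modifying enzyme and the first named gene on the chromosome in this numbering, read 746 units on every array. The run lies where the numbering begins, and whether its probes read repeated sequence was not tested.

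Only 3 other members showed the same order by at least 0.4 on the log2 scale at both steps, which makes 11 members, against 0 of the 6183 bright probe sets with 1 symbol and 15 of all probe sets. TC0200004196, on chromosome 2 between the pseudogenes Gm13803 and Gm13813, had 125603 units in control medium, 191300 with SEMA3E and 305383 with SEMA3E and IgG. TC0200001502, beside the pseudogene Gm13806, had 33246, 48229 and 84982 units. TC1400001514, on chromosome 14 between Gm9637 and 1700110I01Rik, had 14797, 21295 and 30199 units. No member differed by that much downwards at both steps. More members changed direction by at least 0.4 at each step: 29 were highest with SEMA3E and 13 lowest with it. Of all probe sets 164 and 109 did so, and of the bright probe sets with 1 symbol 1 and 7. The SEMA3E value enters both steps.

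The chromosome 2 pair belongs to a single stretch of pseudogenes read on both strands. In RefSeq's order Gm13803, Gm13806, Gm13809 and Gm13813 lie within 7 consecutive genes of chromosome 2. The members next to the pair did not share its values: TC0200001503 read 69001 units in control medium and 64272 on the other arrays, and TC0200004197 read 57179 units in control medium and with SEMA3E, and 51409 with SEMA3E and IgG. Gm13806 itself was dim and identical on every array, at 128 units.

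On chromosome 4 a run of 4 members lay between Tnc and the predicted gene Gm11217, and 3 of them were much higher with SEMA3E. TC0400002814 had 432 units in control medium, 3864 with SEMA3E and 1309 with SEMA3E and IgG, the highest ratio of SEMA3E to control among the members, at 8.94-fold. TC0400002813 had 312, 1841 and 775 units, a ratio of 5.90. TC0400002815 had 369, 1157 and 845 units, a ratio of 3.13. In all 3 the control array was lowest, the SEMA3E array highest, and the array with IgG between them.

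The last of the run went another way, while Tnc was higher than control on both arrays with SEMA3E, by less than the other 3 members. TC0400002816, the one nearest to Gm11217, had 685 units in control medium, 560.0 with SEMA3E and 1029.8 with SEMA3E and IgG, so that SEMA3E was lowest. Tnc, which encodes the matrix glycoprotein tenascin C, had 1977, 2316 and 2373 units, a log2 difference of 0.23 between SEMA3E and control and 0.26 between SEMA3E with IgG and control. Gm11217 read 12.6 units on every array. Since 3 of the 4 members passed the brightness threshold only through the arrays where they were high (their control values lay below 511 units), such members could be chosen only because they differed between arrays.

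**Figure D4:**
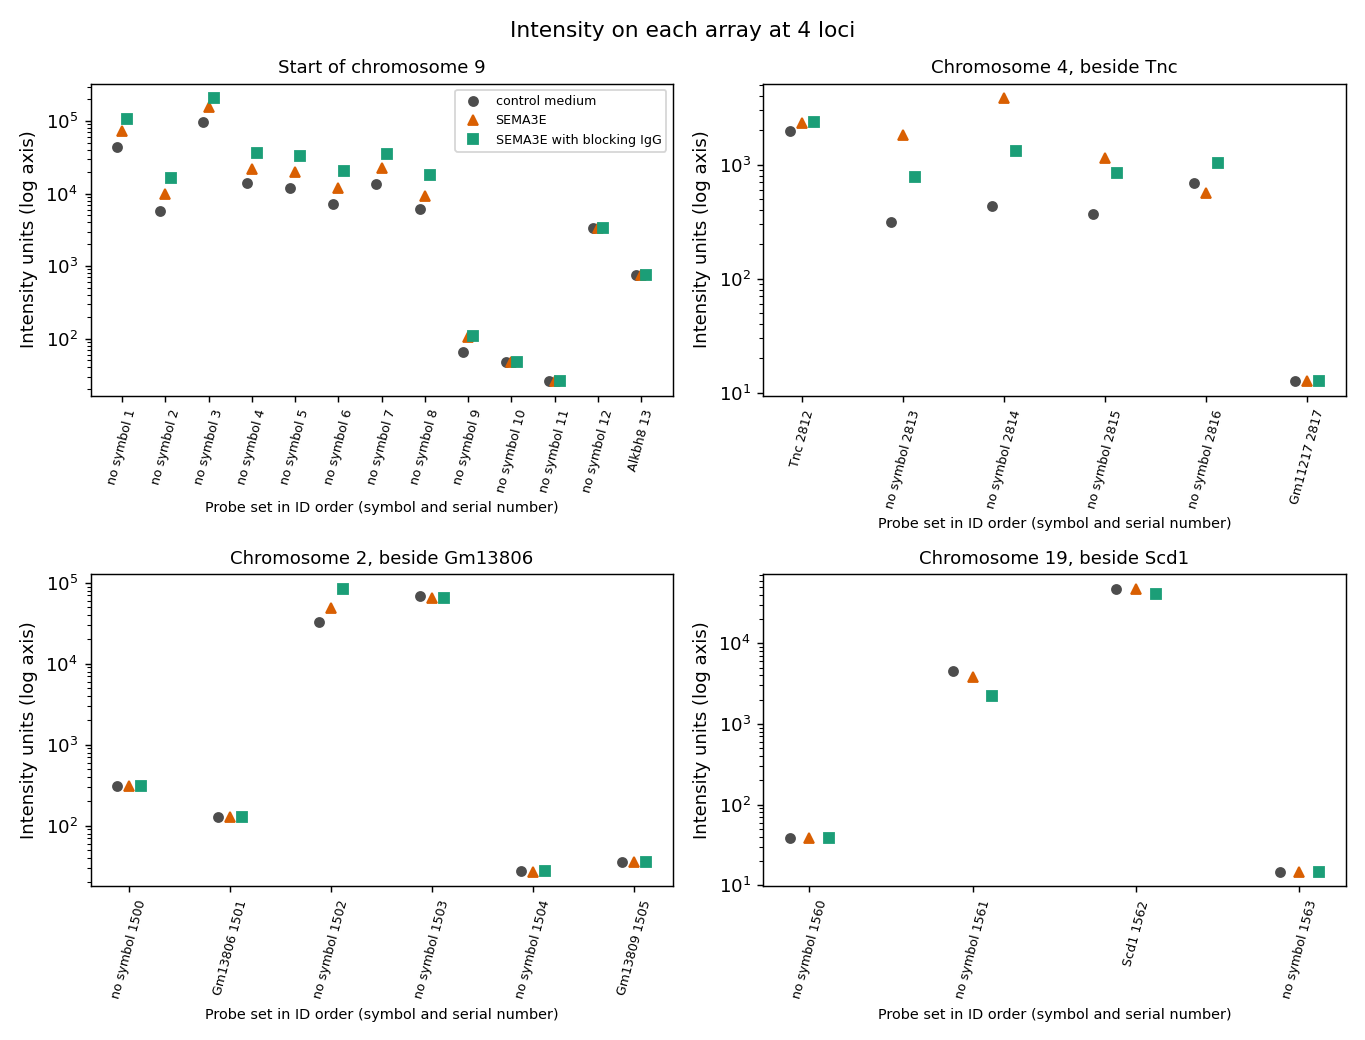
Intensity on each array, on a log axis, for neighbouring probe sets in ID order at the start of chromosome 9, beside Tnc, beside Gm13806 and beside Scd1. At the start of chromosome 9 all 8 members run from control (lowest) to SEMA3E with IgG (highest), while beside Tnc 3 members peak with SEMA3E, at 1157 to 3864 units.

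Other members higher with SEMA3E came alone or in groups with shared values. TC0700003532 on chromosome 7 had 371 units in control medium, 837 with SEMA3E and 449 with SEMA3E and IgG, a log2 difference of 1.17 between SEMA3E and control. Its values in control medium and with IgG lay below 511 units, so it became a member only through the SEMA3E array. TC0700003534, next but one to TC0700003532, had 3109, 5674 and 5731 units, a difference of 0.87. TC0100000345, TC0400000515 and TC0X00001560, on chromosomes 1, 4 and X, all had 1595.5, 3235 and 3016 units, a difference of 1.02. In the last 4 both arrays with SEMA3E were high, whereas in TC0700003532 the array with IgG lay near control. TC1700001799, next to Btbd9, had 1289, 2560.4 and 1921 units, with the array with IgG between the others.

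Members lower with SEMA3E differed less. TC1800001314, the second probe set after Sema6a, had 1425 units in control medium, 818 with SEMA3E and 1489 with SEMA3E and IgG, a log2 difference of −0.80 between SEMA3E and control. TC1800001313, between it and Sema6a, had 2111, 1549 and 2465 units. Sema6a, which encodes a transmembrane semaphorin, had 8477, 7849 and 8477 units, a difference of −0.11. All of them were lowest with SEMA3E, and the third member of this stretch, TC1800001315, was not: it had 2685, 2154 and 2103 units.

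A further set of members was lowest with SEMA3E and higher again with IgG. TC0100003482, next to Mgst3, had 1942, 1135 and 1803 units, a difference of −0.78 between SEMA3E and control. TC0300000026 had 3386, 2121 and 3686 units, a difference of −0.67. TC0400001746 and TC0900002348, on chromosomes 4 and 9, both had 16885, 11210.3 and 14704 units, a difference of −0.59. TC1700001432, TC0800002605 and TC1300001428 completed the 8 lowest, with differences from −0.55 to −0.57. TC0700004220, between Cog7 and Gga2, had 17458, 13412 and 23181 units, a difference of 0.79 between SEMA3E with IgG and SEMA3E. In all of these 8 the SEMA3E array was the lowest.

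The array with IgG was the lowest in another set, again partly through shared values. TC1800001497 had 1292 units in control medium, 1862 with SEMA3E and 772 with SEMA3E and IgG, a log2 difference of −1.27 between SEMA3E with IgG and SEMA3E. TC1100004089, TC1200000956 and TC1300000002, on chromosomes 11, 12 and 13, all had 8403, 11918 and 5801 units, a difference of −1.04. TC0100000750 and 4 members on unplaced scaffolds of chromosome 1 had 545, 754 and 373 units, a difference of −1.01. In each the SEMA3E array was highest. The members that read 373 units with IgG lay below 511 units there, and passed the threshold only through the other arrays. TC0100000750 lies near Csprs in the numbering, as does TC0100000741, which shares 496, 678 and 459.8 units with 4 other members. Those values lay below 511 units in control medium and with IgG, so these members passed only through the SEMA3E array.

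Members lower with SEMA3E and IgG than with control had the widest gap beside Scd1, the stearoyl-CoA desaturase that introduces a double bond into saturated fatty acids. TC1900001561, directly before Scd1 in the numbering, had 4499.9 units in control medium, 3837 with SEMA3E and 2198 with SEMA3E and IgG, a log2 difference of −1.03 between SEMA3E with IgG and control. Scd1 itself had 47679, 47606 and 40527 units, a difference of −0.23. Both were lowest with IgG. TC1000000979 had 1650.3, 1509 and 890.4 units, a difference of −0.89. TC0100003286 and TC0100000168, both on chromosome 1, had differences of −0.69 and −0.58.

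The other 8 of the 10 runs of at least 4 members held smaller differences. In them no difference between arrays exceeded 0.39 on the log2 scale. They include 5 members next to Ebf1, a transcription factor of the early B cell factor family, with means from 9.13 to 10.84, and 4 members between Dpyd and Alg14 on chromosome 3, with means from 13.19 to 17.25. Of the latter, 3 were identical on every array. The remaining runs lay on chromosomes 3, 5, 8, 16 and 19, and all 10 runs together held 47 members.

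The 14 mitochondrial members covered a range from 9.24 to 16.79 on the log2 scale. TC0M00000025 had 119052 units in control medium, 117852 with SEMA3E and 103945 with SEMA3E and IgG. TC0M00000012, beside ND3, had 111682, 100667 and 116571 units, and TC0M00000019 had 74217, 67326 and 73320 units. The first was lowest with IgG and the others with SEMA3E. The files do not say whether any of these probe sets reads a tRNA.

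Most mitochondrial members were slightly lower with SEMA3E. Against control 9 were lower (64.3%), 1 was higher and 4 identical, with a median of −0.15, and none was 1.5-fold apart. Of all probe sets 8.95% were lower, of the bright probe sets with 1 symbol 23.1% and of all members 28.2%. Among members at 16 or more 54.7% were lower, so a lean downwards on this array was not particular to the mitochondrial members. TC0M00000014 had 9961, 6843 and 12672 units, the furthest apart at −0.54 against control and 0.89 between SEMA3E with IgG and SEMA3E. TC0M00000028, the dimmest, had 705, 516 and 609 units, a difference of −0.45 against control. TC0M00000010 had 9852, 7552 and 10325 units, TC0M00000020 had 11719.6, 9072 and 10547 units, TC0M00000022 had 1641, 1309.9 and 1417 units, and TC0M00000029 had 2847, 2321 and 2373 units. All 6 of these were lowest with SEMA3E.

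The remaining mitochondrial members differed little or not at all. TC0M00000003, TC0M00000026 and TC0M00000030 read 17143, 1433 and 18075 units on every array. TC0M00000018 had 6431 units in control medium and with SEMA3E and 6374 with SEMA3E and IgG. TC0M00000001, the first of the chromosome, had 5183, 5309 and 5579 units, the only one higher with SEMA3E than in control medium. With IgG against SEMA3E 9 of the 14 were higher and 2 lower, and with IgG against control 4 were higher and 7 lower. Of all members 37.2% were higher and 20.1% lower in the first of these comparisons, and 37.1% and 14.1% in the second. Of all probe sets the shares were 9.68% and 12.8% in the first, and 10.3% and 9.29% in the second.

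Named mitochondrial genes also held both lower and identical values. mt-Rnr1, the small ribosomal RNA of the mitochondrion, had 281349, 247072 and 313538 units, a difference of −0.19 between SEMA3E and control. ND2, a subunit of respiratory complex I, had 7889.7, 6358 and 8313 units, a difference of −0.31. COX1 had 328485, 309994 and 331884 units. ND3 was lower at both steps, with 16972, 14451 and 13154 units. COX2, mt-Tk and ND6 were identical on every array, at 11466, 2842 and 2307 units. Of 11 other listed noncoding RNAs that were measured, 8 were lowest with SEMA3E and 3 (Rn5s, Rmrp and Neat1) were identical on every array. Those 3 were the dimmest of the 11, with means of 7.12, 5.59 and 7.65, and Rmrp lay near the background level of 5.49. Of all probe sets 8.95% were lower with SEMA3E than in control medium, and of the bright ones with 1 symbol 23.1%. The difference between SEMA3E and control was −0.31 in Rn28s1, −0.28 in Rny3, −0.29 in Bc1 and −0.11 in Malat1, and the difference between SEMA3E with IgG and SEMA3E was 0.44, 0.43, 0.40 and 0.21. In Rny1 SEMA3E minus control was −0.24, in Rn7sk, the brightest of the list, −0.07, and in Rpph1 and Snhg11 −0.04.

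**Figure D5:**
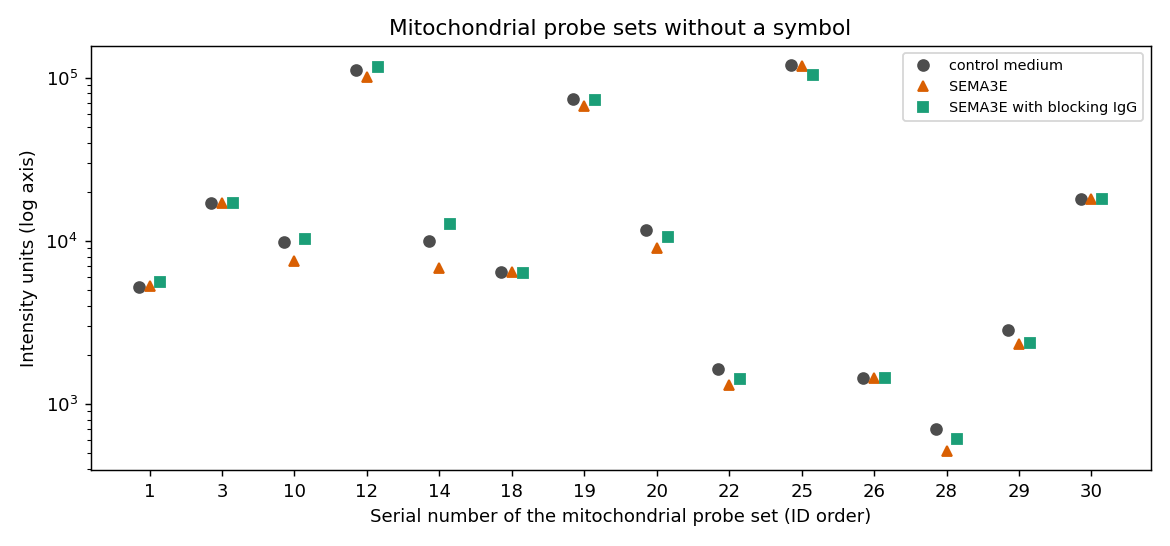
Intensity on each array, on a log axis, for the 14 mitochondrial members in ID order. In 9 of the 14 (64.3%) the SEMA3E value lies below the control value, against 28.2% of all members. TC0M00000014 has the widest gap, from 6843 units with SEMA3E to 12672 with SEMA3E and IgG.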

How the data were processed

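Per the labels' protocols, RNA of the 3 cultures was isolated by TRIzol, cleaned with the SV Total RNA system, and labelled by the GeneChip WT Pico method. The values are intensities deposited by the authors on a linear scale, and the submitters' processing notes name Affymetrix Expression Console. Its version, the build and how probes were summarised and normalized were not given in the sources used here. Depth does not apply to arrays, and their number limits the precision.

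Values were used as log2(intensity + 1), and a difference is that of 2 arrays, with no test. The annotation leaves 33206 of 65956 probe sets unnamed. Named were the 12 brightest members, the 3 on either side of the threshold, the 8 highest and 8 lowest of each difference, all mitochondrial members and runs of at least 4. The annotation has no positions, so runs come from the numbering of the IDs. The members, lists and rules were chosen with earlier results of these data known. Runs, shared values, the 0.4 threshold and leaving out 12 members were chosen after the data were seen. Counting was checked on simulated data. Thresholds, ties, pseudocount and scaling were varied. Software was matplotlib 3.10.9, statsmodels 0.14.6 (loess), scipy 1.17.1, pandas 2.3.3, numpy 2.4.6 and Python 3.11.15.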

Additional observations from a re-analysis of the deposited data

How the results depend on the processing

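With 1 array per medium no difference could be set against the spread between cultures. No paired analysis was possible because each medium has 1 array and no result comes from a test. The number of members was 3418 at a threshold of 8.5, 2315 at 9.5 and 2723 with the threshold on the lowest array. The share identical on all arrays was 36.2%, 38.5% when a tie was a difference under 0.01 on the log2 scale, and 33.5% with shared values counted once. The share higher among the differing members, SEMA3E against control, was 47.6% as deposited, 43.9% centred on the median, and passed to the other side at 51.1% after quantile normalization and 51.0% after loess. For SEMA3E with IgG against SEMA3E it was 64.9%, 67.6%, 59.6% and 59.2% in the same order. For SEMA3E with IgG against control it was 72.5% as deposited and 69.0% after quantile normalization and after loess (68.98%). The median differences of 0 became −0.0144, 0.00136 and 0.00192 for SEMA3E against control (centring, quantile, loess). They became 0.0136, −0.000706 and −0.00495 for SEMA3E with IgG against SEMA3E, and −0.000802, −0.00018 and −0.00405 for SEMA3E with IgG against control. The count at 1.5-fold for SEMA3E against control was 20 in place of 31 without the 12 members at the start of chromosome 9 and beside Tnc, by construction, since it leaves members out. Of the 31, 42 and 37 members at 1.5-fold in the 3 comparisons, 27, 40 and 35 stayed at 1.5-fold under all 4 alternatives, and 0 changed sign. The alternatives were a pseudocount of 16, centring on the median, quantile normalization and loess. The cause of the other changes was not tested.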
